A study of Mus musculus with 12 samples.

Results

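Calcineurin and protein phosphatase 1 (PP1) are serine/threonine phosphatases of neurons, and the genes described here encode subunits and regulators of both. The set holds 8 genes that were listed by symbol, namely the calcineurin subunit genes Ppp3ca, Ppp3cb and Ppp3r1, the calcineurin inhibitor genes Rcan1 and Rcan2, the PP1 inhibitor genes Ppp1r1a and Ppp1r1b, and the PP1 scaffold gene Ppp1r9b. All 8 were among the 15759 entries of the normalized count table, and all 8 passed the filter on low values that left 15369 genes for testing. RNA-seq with poly-A selection was performed on the whole cortex and the whole cerebellum of SCA1 knock-in (SCA1 KI) mice and their wild-type (WT) littermates, aged 12 weeks. The 12 libraries form 4 groups of 3, set by brain region and genotype. SCA1 KI mice model spinocerebellar ataxia type 1 and carry 154 glutamine codons in 1 Atxn1 allele and 2 in the other. The expanded allele is expressed from its own locus, so that it is made wherever Atxn1 is used and not in 1 cell type alone, and all groups share the C57BL/6J background. The mice are labelled as male. Libraries are named here by the number (cerebellum) or letter (cortex) that the table gives them.

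Calcineurin is activated by calcium and calmodulin. Its catalytic A subunit, made from Ppp3ca, Ppp3cb or Ppp3cc, binds a regulatory B subunit with calcium-binding EF hands, which Ppp3r1 encodes in brain. The enzyme dephosphorylates NFAT transcription factors and CRTC coactivators, and at synapses it takes part in long-term depression. Rcan1 and Rcan2 encode regulators that bind calcineurin and inhibit it. Calcineurin also removes the phosphate that protein kinase A (PKA) puts on inhibitor-1, the product of Ppp1r1a, and on DARPP-32, the product of Ppp1r1b. Both proteins inhibit PP1 when they carry this phosphate, so the calcium and cAMP signals meet at PP1. Spinophilin, the product of Ppp1r9b, is a scaffold that holds PP1 in dendritic spines.

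The members lie on 6 mouse chromosomes (GRCm38, GENCODE vM21), with Ppp3r1, Ppp1r1b and Ppp1r9b on chromosome 11. Rcan1 (ENSMUSG00000022951) is on the minus strand of chromosome 16 from 92391953 to 92470867, and Rcan2 (ENSMUSG00000039601) is on the plus strand of chromosome 17 from 43801351 to 44039516. RefSeq promoter windows (GRCm38.p6, 250 bases before to 50 bases after a transcript start) were matched for 5 of the 8 members, Ppp3cb, Ppp3r1, Rcan1, Rcan2 and Ppp1r9b, in 8 windows. Both windows of Rcan1 and the upstream pair of Rcan2 are printed because these inhibitor genes behaved differently in the data below, and because the internal promoter of Rcan1 is a textbook target of NFAT. Capitals mark matches, on either strand, to the cAMP response element TGACGTCA or to the NFAT core GGAAA (read as TTTCC on the other strand).
Rcan1 upstream start, chr16:92466120-92466419, minus strand: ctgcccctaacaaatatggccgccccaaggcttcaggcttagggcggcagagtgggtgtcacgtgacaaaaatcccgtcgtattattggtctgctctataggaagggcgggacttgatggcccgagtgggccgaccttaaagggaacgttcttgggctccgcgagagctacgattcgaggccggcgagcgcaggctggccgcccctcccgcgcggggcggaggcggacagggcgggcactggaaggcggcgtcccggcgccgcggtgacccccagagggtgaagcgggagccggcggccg
Rcan1 internal start, chr16:92400029-92400328, minus strand: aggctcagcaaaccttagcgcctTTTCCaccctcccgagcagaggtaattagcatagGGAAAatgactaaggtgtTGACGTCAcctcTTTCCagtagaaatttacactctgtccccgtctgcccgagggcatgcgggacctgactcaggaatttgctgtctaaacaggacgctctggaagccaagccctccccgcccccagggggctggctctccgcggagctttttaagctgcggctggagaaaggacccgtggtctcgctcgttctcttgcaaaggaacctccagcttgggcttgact
Rcan2 upstream start, chr17:43801102-43801401, plus strand: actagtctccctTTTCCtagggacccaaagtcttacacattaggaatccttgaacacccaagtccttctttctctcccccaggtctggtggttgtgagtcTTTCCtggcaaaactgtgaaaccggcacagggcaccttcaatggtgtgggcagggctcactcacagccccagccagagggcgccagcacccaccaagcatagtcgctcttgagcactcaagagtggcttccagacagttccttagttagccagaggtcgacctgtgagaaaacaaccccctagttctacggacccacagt
Rcan2 next start, chr17:43801601-43801900, plus strand: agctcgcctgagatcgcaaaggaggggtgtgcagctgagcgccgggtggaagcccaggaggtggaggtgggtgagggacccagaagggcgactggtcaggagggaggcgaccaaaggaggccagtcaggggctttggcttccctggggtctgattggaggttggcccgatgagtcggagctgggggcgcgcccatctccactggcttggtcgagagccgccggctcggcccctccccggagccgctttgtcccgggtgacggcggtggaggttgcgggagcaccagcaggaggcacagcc
The internal window of Rcan1 held the cAMP response element, its first base at −175 from the start, and 3 NFAT cores at −227, −193 and −163, none of them overlapping it. The first Rcan2 window held 2 NFAT cores, at −238 and −150. The NFAT core is short and was present in 61.3% of all 32851 promoter windows of the table, whereas the cAMP response element was present in 1.79%. In the 14618 windows of tested genes these shares were 58.6% and 2.85%. Among the 8 member windows, 3 held an NFAT core and 1 held the cAMP response element. The octamers TGAATGAA and TGAATGGA, which capicua, the DNA-binding partner of ataxin-1, recognizes, were in 1.3% and 1.21% of all windows and in none of the 8. Among windows of tested genes their shares were 0.835% and 0.787%. A match describes letters only, and the gene counts below do not separate the starts.

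The libraries held 29520855 to 51311309 reads on genes, so counting error was small for every member. The level of Atxn1 itself overlapped between the genotypes in both regions, at 7370 ± 815 normalized counts (SD, n = 3) in WT cortex and 6040 ± 1337 in SCA1 KI cortex, and counts per gene do not show the length of the repeat. The SCA1 KI cortex library A stood apart from libraries E and F (chi-square per gene of 33.5 and 36.6, against 10.5 between E and F), and results in the cortex are therefore also given without it. The WT cortex library B held a choroid plexus marker sum of 1668 normalized counts, against 193 to 307 in the other cortex libraries. This sum varied widely in the cerebellum, at 757, 25045 and 75442 in SCA1 KI libraries 1, 3 and 5 and 19397 to 72383 in WT libraries. The WT cerebellum library 2 held the lowest sum of 7 granule cell markers, at 134668 normalized counts against 182751 to 192756 in the other cerebellum libraries.

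In the cortex, 6 of the 8 members were expressed at lower levels in SCA1 KI mice and none at higher levels. The 6 were Ppp3ca, Ppp3r1, Rcan2, Ppp1r1a, Ppp1r1b and Ppp1r9b. They cover the main catalytic subunit of calcineurin, its B subunit, 1 of its inhibitors, both PP1 inhibitors of the set and the spine scaffold of PP1. Of all tested genes, 15.6% passed in the cortex, 10.8% as lower and 4.82% as higher. A gene passed when its Benjamini-Hochberg adjusted p from limma was under 0.05 and its log2 fold change (LFC, of the normalized count + 1) was over 0.25 in size. The same 6 genes passed without library A. The 6 members that passed were also those with no overlap between the libraries of the genotypes, where 30.9% of all tested genes had none and 18% had every SCA1 KI library lower. The median LFC of the members was −0.49, against −0.0028 over all tested genes. The members and the lists below were chosen with earlier results of these data known. Their excess over all tested genes is therefore no test of the set.

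In the cerebellum, Rcan2 was the only member that passed, and it was lower. There, 5.36% of all tested genes passed, 4.44% as lower and 0.917% as higher. WT and SCA1 KI libraries were fully separate for 4 members, with Ppp3r1, Rcan2 and Ppp1r1b lower in SCA1 KI and Ppp3cb higher, where 31.8% of all tested genes were separate (17.5% lower and 14.3% higher). The median LFC of the members was −0.07, against −0.0049 over all tested genes. The same WT and SCA1 KI groups enter the test of the difference between the regions below. In whole tissue, fewer cells of a type and less RNA per cell cannot be told apart.

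**Figure D1:**
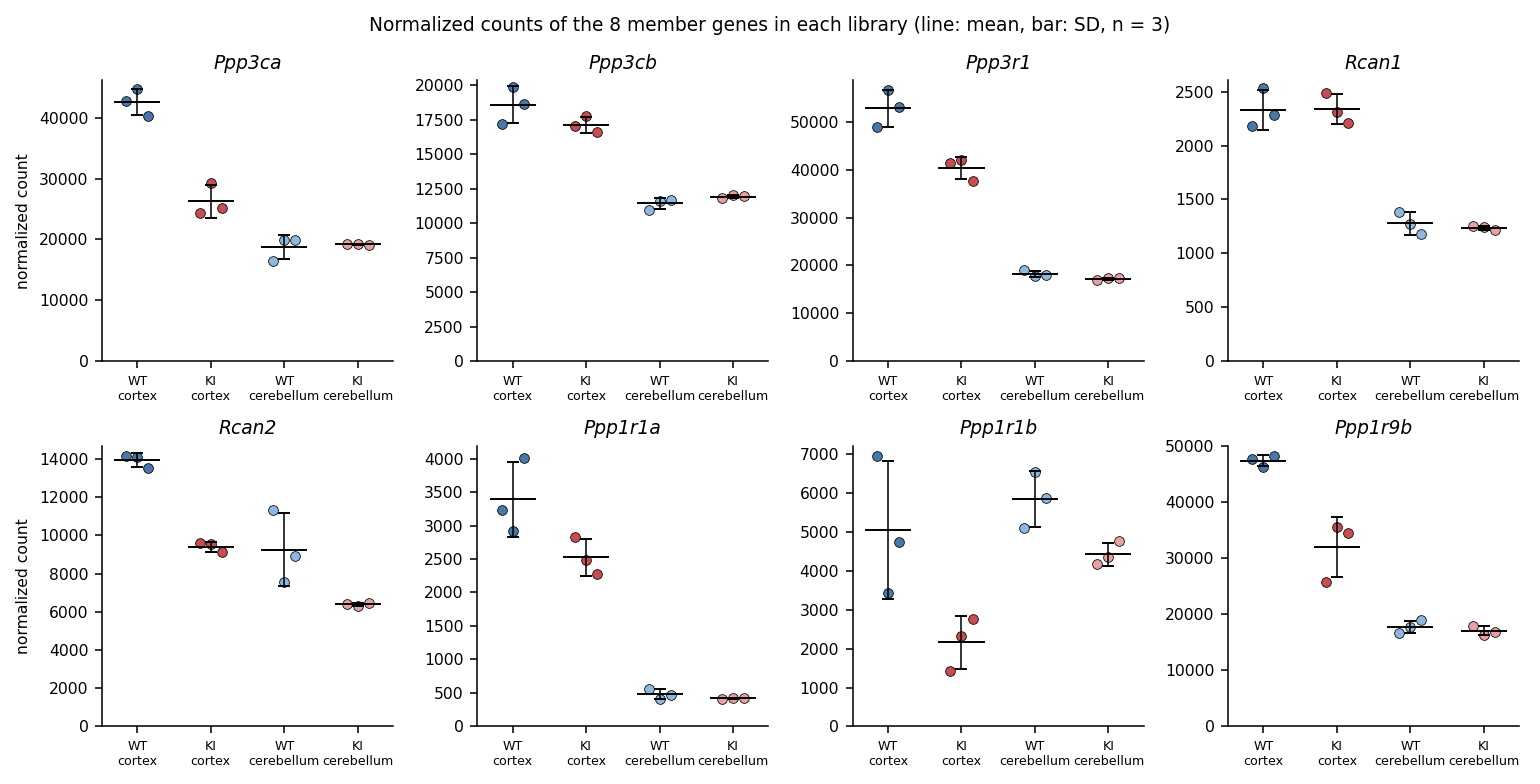
Normalized count of each member gene (y axis, linear from 0) in the 12 libraries, grouped on the x axis by genotype and region, with the mean as a line and the SD as a bar (n = 3). The 3 SCA1 KI cortex libraries lie below the 3 WT cortex libraries for 6 genes but overlap them for Ppp3cb and Rcan1, while in the cerebellum the genotypes lie close together except for Rcan2 and Ppp1r1b.

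Ppp3ca (chromosome 3, 136670124 to 136937727, plus strand) encodes the catalytic A alpha subunit, the main calcineurin isoform of forebrain neurons, and showed the largest fall among the calcineurin genes. Its normalized count in WT cortex was 42770 in library B, 44694 in C and 40372 in D. In SCA1 KI cortex it was 24314 in library A, 29325 in E and 25119 in F. Every SCA1 KI library was well below every WT library. The mean fell from 42612 ± 2166 to 26253 ± 2691 (SD, n = 3), which was 38.5% lower on the fitted scale (LFC −0.70, standard error 0.086, adjusted p = 1.58e-04 from limma). Without library A the LFC was −0.65, with an adjusted p of 6.89e-04 from limma.

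In the cerebellum Ppp3ca did not follow this. The WT libraries held 16452 (library 2), 19875 (library 4) and 19869 (library 6) normalized counts, and the SCA1 KI libraries held 19208, 19250 and 19115. The SCA1 KI libraries were nearly equal and lay inside the WT range, of which library 2 was the low end. The LFC was 0.04 (standard error 0.086, adjusted p = 0.877 from limma). The difference between the genotype effects of the 2 regions was −0.74 (standard error 0.12, adjusted p = 0.00279 from limma). Ppp3ca and Ppp1r9b were the 2 of 8 members that passed this test of the difference itself, which 8.15% of all tested genes passed (4.89% with the lower and 3.26% with the higher effect in the cortex).

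Ppp3cb (chromosome 14, 20499364 to 20546573, minus strand) encodes the A beta subunit, which is used across many tissues. It held 17201, 19871 and 18634 normalized counts in the WT cortex libraries and 17057, 17742 and 16600 in those of SCA1 KI mice, and these ranges overlapped. Its LFC was −0.11 in the cortex (adjusted p = 0.216 from limma) and 0.06 in the cerebellum (adjusted p = 0.672 from limma). In the cerebellum all 3 SCA1 KI libraries (11794 to 12007 normalized counts) were above all 3 WT libraries (10970 to 11662), a small separation that did not pass. Ppp3cc, the third catalytic gene and no member of the set, held 955 ± 59.6 normalized counts in WT cortex and 992 ± 66.1 in SCA1 KI cortex (SD, n = 3), which overlapped.

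Divided by exon length, the 3 catalytic genes could be set side by side. Ppp3ca made up 65.6%, 63.4% and 62.3% of their summed count per kb in WT cortex (libraries B, C and D), and 51.6%, 55.9% and 53.1% in SCA1 KI cortex (A, E and F). The mean share was 63.8% ± 1.67 in WT and 53.5% ± 2.17 in SCA1 KI cortex (SD, n = 3), with no overlap. With the longest transcript as the length, the mean shares were 63.1% and 53.0%. In the exact two-sided permutation test p was 0.1, the smallest that 3 against 3 libraries allow. In the cerebellum the share was 55.0% ± 1.91 in WT and 54.2% ± 0.337 in SCA1 KI mice (exact permutation p = 0.4). The SCA1 KI cortex was thus near the cerebellar share, and its difference from the cerebellum was not tested.

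The summed catalytic level was 6697 ± 318 normalized counts per kb in WT cortex and 4908 ± 305 in SCA1 KI cortex (SD, n = 3), which was 26.7% lower (exact permutation p = 0.1). The cerebellum held 3405 ± 248 in WT and 3550 ± 17.3 in SCA1 KI mice (exact permutation p = 0.7). Of this sum, Ppp3ca per kb was 4269 ± 217 in WT and 2630 ± 270 in SCA1 KI cortex, without overlap, and Ppp3cb per kb was 2108 ± 152 and 1945 ± 65.2, with overlap.

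**Figure D2:**
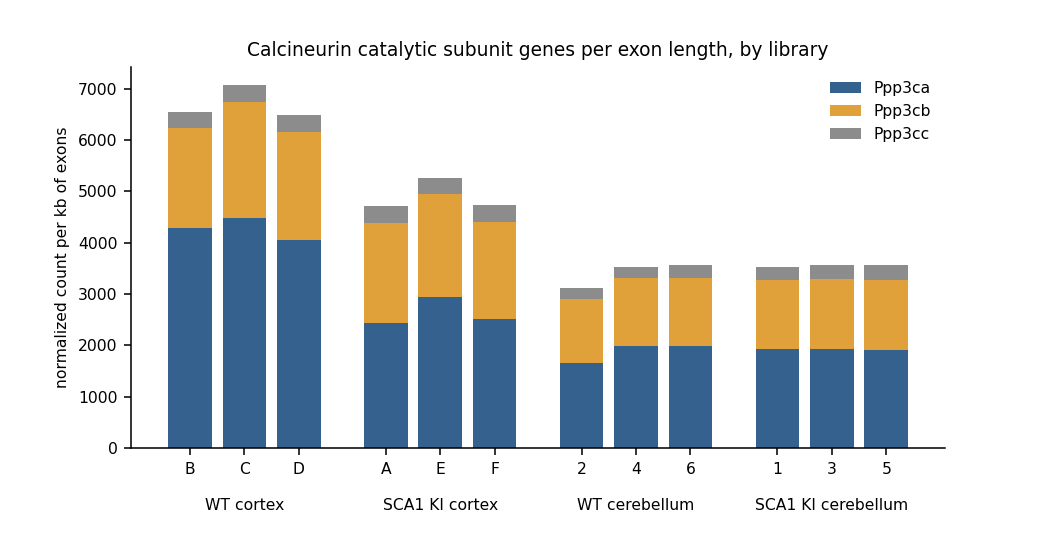
Normalized count per kb of exons of Ppp3ca, Ppp3cb and Ppp3cc, stacked, in each of the 12 libraries (x axis, by group). The Ppp3ca segment is shorter in the 3 SCA1 KI cortex libraries (2436 to 2938) than in the 3 WT cortex libraries (4045 to 4478), and the Ppp3cb segments overlap between the genotypes (1953 to 2256 in WT and 1884 to 2014 in SCA1 KI cortex).

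Ppp3r1 (chromosome 11, 17159263 to 17200375, plus strand) encodes the regulatory B subunit, without which the catalytic subunits are not active. It held 48949, 56682 and 53101 normalized counts in WT cortex libraries B, C and D and 41474, 41975 and 37745 in SCA1 KI cortex libraries A, E and F. All 3 SCA1 KI libraries were below all 3 WT libraries. The gene was 23.6% lower (LFC −0.39, standard error 0.065, adjusted p = 0.00136 from limma), and the LFC was −0.41 without library A. In the cerebellum the SCA1 KI libraries (17019 to 17372) were again below the WT libraries (17744 to 19003), but by an LFC of −0.08 that did not pass (adjusted p = 0.596 from limma). The difference of the effects between the regions was −0.31 (standard error 0.092), just short of the threshold (adjusted p = 0.0604 from limma), and it passed under DESeq2 (adjusted p = 0.0144), with the length and GC trend removed (0.00591) and without WT cortex library B (0.0300). Its exons share 462 bases with Wdr92 on the same strand, so reads there could belong to either gene.

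The 2 calcineurin inhibitor genes differed from each other in the cortex. Rcan1, the feedback inhibitor, held 2181, 2539 and 2282 normalized counts in WT cortex and 2492, 2316 and 2214 in SCA1 KI cortex. The groups overlapped throughout and the means were nearly equal (LFC 0.01, standard error 0.077, adjusted p = 0.971 from limma). Cerebellar Rcan1 counts were lower in level, at 1277 ± 104 in WT and 1236 ± 16.8 in SCA1 KI mice (SD, n = 3), again with overlap (LFC −0.04, adjusted p = 0.843 from limma). Its direction turned in both regions when certain libraries were left out.

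Rcan2, which is expressed in brain, heart and muscle, was lower in both regions of SCA1 KI mice. In the cortex it held 14184, 14126 and 13551 normalized counts in WT libraries B, C and D and 9600, 9528 and 9122 in SCA1 KI libraries A, E and F. Both groups were tight and far apart. The gene was 32.5% lower (LFC −0.57, standard error 0.11, adjusted p = 0.00260 from limma), and the LFC was −0.58 without library A.

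In the cerebellum Rcan2 held 11311, 7569 and 8911 normalized counts in WT libraries 2, 4 and 6 and 6421, 6302 and 6466 in SCA1 KI libraries 1, 3 and 5. The WT libraries spread widely, with library 2 the highest, and all lay above the SCA1 KI libraries. The gene was 30.0% lower (LFC −0.51, standard error 0.11, adjusted p = 0.0127 from limma). Without WT library 2 the LFC was −0.36 (adjusted p = 0.0113 from limma). The call was lost when the cerebellum was fitted on its own (adjusted p = 0.0587 from limma) and without SCA1 KI cerebellum library 1 or 3 (0.0504 and 0.0525). The genotype effects in the 2 regions differed by −0.05 (standard error 0.15, adjusted p = 0.880 from limma).

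Ppp1r1a (chromosome 15, 103530279 to 103538003, minus strand) encodes inhibitor-1, the PP1 inhibitor of cortical neurons. It held 3237, 2921 and 4012 normalized counts in WT cortex libraries B, C and D and 2823, 2478 and 2269 in SCA1 KI libraries A, E and F. The groups did not overlap, but WT library C and SCA1 KI library A lay close together and WT library D was the highest. The gene was 25.2% lower (LFC −0.42, standard error 0.13, adjusted p = 0.0391 from limma), the weakest call among the members. The call was lost with the cortex fitted on its own (adjusted p = 0.0698 from limma) and when any of 8 libraries was left out, most of all WT library D (LFC −0.29, adjusted p = 0.132) and SCA1 KI library F (LFC −0.34, adjusted p = 0.125). In the cerebellum it was low, at 485 ± 74.4 normalized counts in WT and 419 ± 6.69 in SCA1 KI mice (SD, n = 3), and the groups overlapped.

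Ppp1r1b (chromosome 11, 98348404 to 98357796, plus strand) encodes DARPP-32, which is best known from the medium spiny neurons of the striatum and is also made by deep-layer cortical neurons and Purkinje cells. It showed the largest fall of the set. In WT cortex it held 6939 normalized counts in library B, 3432 in C and 4741 in D. In SCA1 KI cortex it held 1419 in library A, 2312 in E and 2759 in F. Both groups spread widely, and the lowest WT library was still above the highest SCA1 KI library. The gene was 56.9% lower (LFC −1.21, standard error 0.24, adjusted p = 0.00429 from limma). Without library A the LFC was −0.94 (adjusted p = 0.0134) and without WT library B it was −0.95 (adjusted p = 0.0166), both from limma.

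Since Ppp1r1b is abundant in the striatum, which adjoins the dissected cortex, 8 striatal marker genes (Drd2, Adora2a, Rgs9, Gpr6, Penk, Tac1, Pde10a and Syndig1l) were summed in each library. All 8 were detected in both cortex groups, and the normalized count table held no entry under the symbol Drd1. The sum was 15478 normalized counts in WT cortex library B, 6480 in C and 6980 in D, and 4245 in SCA1 KI library A, 6463 in E and 9292 in F. The groups overlapped, and library B, the highest for Ppp1r1b, was the highest for these markers as well. Of the 8 genes, Penk, which encodes proenkephalin, was the 1 that passed in the cortex (LFC −1.21, adjusted p = 0.0408 from limma), where 15.6% of all tested genes passed. The Penk libraries overlapped between the genotypes, at 1710 to 3545 normalized counts in WT and 546 to 2180 in SCA1 KI cortex. The means of Tac1 (524 in WT and 636 in SCA1 KI cortex) and Rgs9 (812 and 815) were not lower, and those of the other markers were. The median LFC of the 8 genes was −0.28. Pde10a (mean of 4787 normalized counts) and Penk (2575) made up most of the WT cortex sum (9646 ± 5057, SD, n = 3). The sum was as high in WT cerebellum (9152 ± 1082), so that it is no measure of striatal tissue alone. The part of striatal tissue in the fall of Ppp1r1b was not tested.

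**Figure D3:**
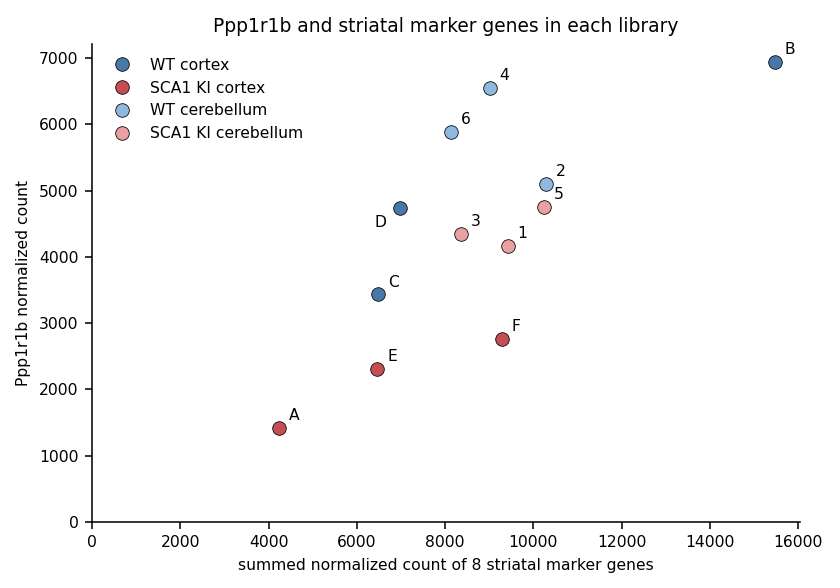
Normalized count of Ppp1r1b (y axis) against the summed normalized count of 8 striatal marker genes (x axis) in the 12 libraries, coloured by group and lettered by library. The 3 SCA1 KI cortex libraries lie lowest, from 1419 to 2759, at marker sums of 4245 to 9292, and WT cortex library B stands apart at a marker sum of 15478.

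In the cerebellum Ppp1r1b held 5103, 6547 and 5882 normalized counts in WT libraries 2, 4 and 6 and 4170, 4346 and 4755 in SCA1 KI libraries 1, 3 and 5. All SCA1 KI libraries were below all WT libraries. The LFC of −0.40 did not pass in the fit over both regions (adjusted p = 0.460 from limma), in which all 4 groups share 1 error, and it passed narrowly with the cerebellum fitted on its own (adjusted p = 0.0495). The difference between the regions was −0.82 (standard error 0.35, adjusted p = 0.189 from limma). Exons of Ppp1r1b share 460 bases with the antisense gene 1700003D09Rik, and the sources used here do not state whether reads were counted by strand.

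Ppp1r9b (chromosome 11, 94991035 to 95006899, plus strand), the gene of spinophilin, held 47715, 46257 and 48263 normalized counts in WT cortex libraries B, C and D and 25766, 35585 and 34573 in SCA1 KI libraries A, E and F. The WT libraries were nearly equal, and library A was far below the other SCA1 KI libraries. The gene was 33.2% lower (LFC −0.58, standard error 0.10, adjusted p = 0.00186 from limma). Without library A the LFC was −0.43 and still passed (adjusted p = 0.00101 from limma). With the length and GC trend removed it was −0.41 and passed as well (adjusted p = 0.00207 from limma). In the cerebellum the libraries of the genotypes overlapped, from 16646 to 18913 normalized counts in WT and from 16349 to 17940 in SCA1 KI mice (LFC −0.06, adjusted p = 0.855 from limma). The regions differed by −0.53 in LFC (standard error 0.14, adjusted p = 0.0417 from limma). This call was lost in 9 of the 12 fits that left out 1 library.

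**Figure D4:**
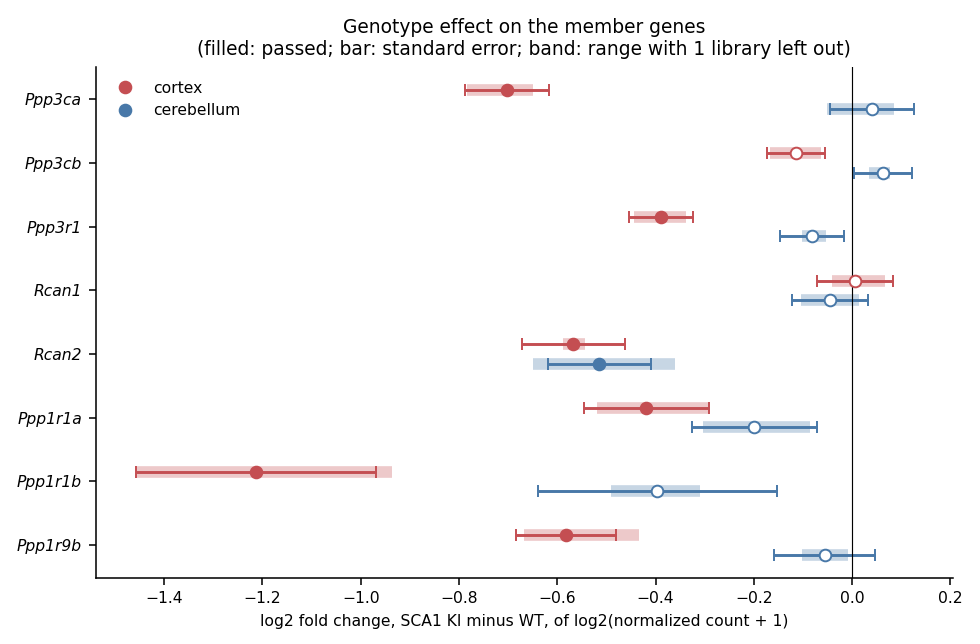
LFC of SCA1 KI minus WT (x axis, log2 scale) for each member in the cortex and the cerebellum, with the standard error as a bar, a filled symbol where the gene passed, and a band for the range when 1 library is left out. In the cortex 6 symbols are filled, from −1.21 for Ppp1r1b to −0.39 for Ppp3r1, and in the cerebellum Rcan2 at −0.51 is filled.

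Across the 4 groups, 7 of the 8 members were higher in WT cortex than in WT cerebellum, where 61.7% of all tested genes differed and 31% were higher in the cortex. The difference ran from an LFC of 0.61 for Rcan2 to 2.80 for Ppp1r1a (adjusted p = 8.15e-10 from limma), which was 6.96-fold higher in the cortex. Ppp1r1b was the exception, with 5037 ± 1772 normalized counts in WT cortex and 5844 ± 723 in WT cerebellum (SD, n = 3) that overlapped (LFC −0.27, adjusted p = 0.351 from limma). For Ppp3ca, Ppp3r1, Ppp1r1a and Ppp1r9b the order was WT cortex, SCA1 KI cortex and then the cerebellar groups, each cortex group apart from the next. Rcan2 in SCA1 KI cortex (9122 to 9600) overlapped WT cerebellum (7569 to 11311). Ppp1r1b in SCA1 KI cortex was the lowest of its 4 groups, below every cerebellum library.

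Per kb of exons in WT cortex, Ppp3r1 was the most abundant member, at 16391 ± 1199 normalized counts per kb (SD, n = 3). It was followed by Ppp1r9b at 9327 ± 204 and Ppp3ca at 4269 ± 217. Rcan2 at 3192 ± 80.1, Ppp1r1a at 2596 ± 430, Ppp3cb at 2108 ± 152 and Ppp1r1b at 1720 ± 605 came next, and Rcan1 was lowest at 756 ± 59.9. In this order the libraries of Ppp1r1a, Ppp3cb and Ppp1r1b overlapped with those of their neighbours, and the others did not. The order depends on the length used. The exon length of Ppp3cb was 8809 bases against 3831 for its longest transcript, and that of Rcan2 was 4372 against 3313. With the longest transcript as the length, Ppp3cb stood above Rcan2. In WT cerebellum Ppp3r1 was again highest at 5657 ± 204, and Ppp1r1a was lowest at 372 ± 56.9.

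The genes whose log2 levels followed each member most closely over the 12 libraries are given as a description, since all genes share the same libraries and the difference between the regions sets most of the correlation. Ppp3ca was most like Prkcb, a protein kinase C gene, with a Pearson r of 0.994, then Lzts3 and Dlgap1. Ppp3r1 was most like Pou6f1 (r = 0.998), Ppp1r9b like Dusp7 (r = 0.995), and Ppp1r1a like Hras (r = 0.999). Rcan2 was less closely matched, by Fads1 at 0.976, and Ppp1r1b was matched by Dhrs3 at 0.964. Among the members themselves, Ppp3cb and Ppp3r1 had an r of 0.984, while Ppp1r1b had an r between −0.58 with Rcan1 and 0.0081 with Rcan2 across the calcineurin genes.

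Beyond the members, 73 genes of the calcineurin, PP1, PKA and related phosphatase lists were read from the same fit, of which 72 passed the filter on low values. In the cortex 13 of the 72 were lower, 2 were higher and 57 did not pass, with a median LFC of −0.05. In the cerebellum 3 were lower, 1 was higher and 68 did not pass, with a median LFC of 0.03. The shares of all tested genes that passed are those given above for each region.

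Of the calcineurin anchors, Akap5, which tethers calcineurin and PKA at the postsynaptic density, was lower in the cortex, at 4192 ± 835 normalized counts in SCA1 KI against 6652 ± 1176 in WT mice (SD, n = 3, LFC −0.67, adjusted p = 0.0157 from limma). Rcan3 and the NFAT genes Nfatc1, Nfatc2, Nfatc3 and Nfatc4 did not pass in either region. Of the coactivators that calcineurin dephosphorylates, Crtc1, the neuronal form, was lower in the cortex (LFC −0.40, adjusted p = 0.00545) and Crtc2 was higher (LFC 0.29, adjusted p = 0.0469), both from limma. The libraries of the genotypes overlapped for Crtc2.

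The catalytic subunits of PP1 itself did not pass in either region. Ppp1ca, Ppp1cb and Ppp1cc had LFCs of −0.08, −0.07 and −0.05 in the cortex, with standard errors of 0.066, 0.068 and 0.077. Among the other PP1 inhibitors, Ppp1r14c, which encodes the PKC-activated inhibitor KEPI, was higher in both regions. It rose from 666 ± 33.9 to 868 ± 25.6 normalized counts in the cortex (LFC 0.38, adjusted p = 0.00284 from limma) and from 589 ± 20.1 to 772 ± 44.9 in the cerebellum (LFC 0.39, adjusted p = 0.00687 from limma; SD, n = 3).

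Of 18 other PP1 targeting and scaffold genes, 5 were lower in the cortex and none was higher. Of all tested genes, 10.8% were lower there and 4.82% were higher. Ppp1r9a, the gene of neurabin and the closest relative of Ppp1r9b, was lower in the cortex (LFC −0.46, adjusted p = 3.54e-04 from limma) and had an LFC of 0.02 in the cerebellum. The difference between the regions passed for it as well (−0.49, adjusted p = 0.00587 from limma). Ppp1r16b, which encodes the membrane-bound PP1 subunit TIMAP, was lower in the cortex (LFC −0.97, adjusted p = 3.52e-04) and in the cerebellum (LFC −0.56, adjusted p = 0.0278), both from limma. Ppp1r3c, a glycogen-targeting subunit, was lower in both regions, with LFCs of −0.34 and −0.36. Phactr1 and Phactr3, which bind PP1 and actin, were lower in the cortex, with LFCs of −0.50 and −0.29.

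Of 9 genes of PKA subunits, Cdk5 and its activators, 3 were lower in the cortex, where 10.8% of all tested genes were lower. They were the Cdk5 activator genes Cdk5r1 and Cdk5r2 and the PKA regulatory subunit gene Prkar1b, with LFCs of −0.44, −0.46 and −0.34. The other 6 did not pass there, among them the kinase genes Prkaca, Prkacb and Cdk5. The median LFC of the 9 genes was 0.02 in the cortex. Prkar2b, another PKA regulatory subunit gene, was lower in the cerebellum (LFC −0.57, adjusted p = 0.0110 from limma) and had an LFC of 0.02 in the cortex. The difference between the regions passed for Prkar2b in the direction opposite to Ppp3ca (0.59, adjusted p = 0.0397 from limma). Of 22 genes of PP2A, PP4, PP5 and PP6 subunits, Ppp2r2c, Ppp4r4 and Ppp6r1 were lower in the cortex, with LFCs of −0.44, −0.74 and −0.27. The other 19 did not pass, so the count was near the 10.8% of all tested genes that were lower.

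**Figure D5:**
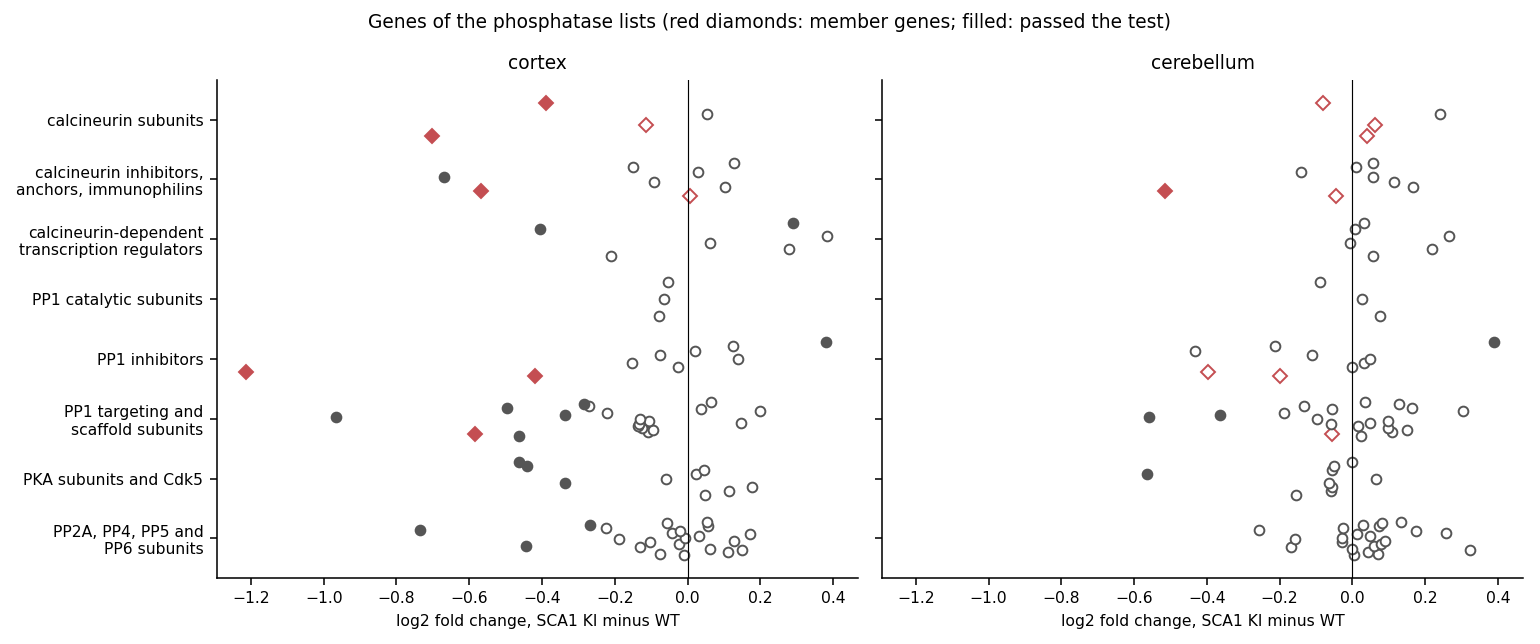
LFC of SCA1 KI minus WT (x axis, log2 scale) for every tested gene of the 8 phosphatase lists (rows), in the cortex (left) and the cerebellum (right), with members as red diamonds and genes that passed as filled symbols. Filled symbols lie mostly left of 0 in the cortex, where 13 other genes were lower and 2 higher, and 4 other genes are filled in the cerebellum.

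Cell type markers moved with genotype in the cortex beside these members. The sum of 8 cortical excitatory neuron markers was 88901 to 91237 normalized counts in WT and 60128 to 71075 in SCA1 KI cortex, and the sum of 7 forebrain interneuron markers was 36026 to 37985 and 25364 to 32902. The sum of 7 astrocyte markers was 257739 to 267563 in WT and 125110 to 189681 in SCA1 KI cortex, with library A the lowest. Library A was also the lowest for Ppp3ca, Ppp1r1b and Ppp1r9b. It was the highest SCA1 KI cortex library for Rcan2 and Ppp1r1a, and library F was the lowest for Ppp3r1. The 6 immediate early genes, which follow neuronal activity, summed to 29799 to 48941 in WT and 16847 to 22697 in SCA1 KI cortex. None of these 4 sums overlapped between the genotypes, whereas the microglia sum did, at 12570 to 14111 and 12509 to 12894. Gene by gene, 3 of 8 excitatory neuron, 3 of 7 interneuron, 4 of 7 astrocyte and 2 of 6 immediate early genes passed as lower, and none of these lists had a gene that passed as higher. Of all tested genes, 10.8% passed as lower in the cortex and 4.82% as higher. The sums of the hippocampus, thalamus and Purkinje cell lists were also lower without overlap in SCA1 KI cortex. Of these, 1 of 6 hippocampus genes (Wfs1), 1 of 6 thalamus genes (Rora) and 3 of 7 Purkinje cell genes (Itpr1, Calb1 and Car8) passed as lower, and the Purkinje cell gene Slc1a6 passed as higher. Itpr1 alone made up 35112 of the mean Purkinje sum of 43981 in WT cortex, and Rora 6305 of the thalamus sum of 8720. In the same group Slc1a2 made up 209460 of the mean astrocyte sum of 264093, and Slc17a7 61279 of the excitatory neuron sum of 89755. The astrocyte genes Gfap, Gja1 and Gjb6 did not pass in the cortex. The sums of the oligodendrocyte, endothelium, granule cell and choroid plexus lists overlapped. The part of these markers in the lower levels of the 6 members was not tested.

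In the cerebellum, marker sums moved with genotype beside the fall of Rcan2 as well. The oligodendrocyte sum was 183010 to 273533 in WT and 155811 to 156338 in SCA1 KI mice, with WT library 2 the highest for both it and Rcan2. The sums of the astrocyte (151960 to 164759 and 133940 to 139636), interneuron (54022 to 54792 and 44432 to 46719), thalamus (30159 to 32955 and 23807 to 25652) and microglia lists (4010 to 5592 and 3756 to 3950) were lower in SCA1 KI mice without overlap. That of the cortical excitatory list was higher (16110 to 20816 in WT and 21428 to 23286 in SCA1 KI mice). Slc17a7 alone made up 14810 of its mean of 18913 in WT cerebellum. Gene by gene, Tbr1 of this list passed as higher, and Foxp2 and Rorb passed as lower. Rora made up 22073 of the mean thalamus sum of 31548 in WT cerebellum, and Gad1 27180 of the interneuron sum of 54360. Markers of other brain regions were among the genes that passed as lower. Tcf7l2 of the thalamus list held 1480 to 2404 normalized counts in WT and 210 to 249 in SCA1 KI cerebellum, Slc17a6 of the same list held 2878 to 6803 and 982 to 1310, and Sst of the interneuron list held 368 to 864 and 41.2 to 72.6. These groups did not overlap. The part of these markers in the lower level of Rcan2 was not tested.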

How the data were processed

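RNA-seq was performed by the authors on macro-dissected whole cortex and cerebellum with oligo-dT purified RNA and 75 bp paired-end reads on an Illumina HiSeq. Per the submitters' processing notes and the study's methods, reads were aligned with STAR to mm10, counted per gene with featureCounts and normalized with DESeq2. Versions and the annotation used for counting are not given in the sources used here. The deposited values are normalized counts, a signal unit in which each library's reads are divided by its size factor, and 100% of the values were whole reads (tolerance 0.01) once this factor was recovered. The labels give male mice, whereas the methods state that males and females were combined.

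The 15369 genes whose mean normalized count reached 10 were tested with limma 3.58.1 (R 4.3.3, empirical Bayes with a mean trend), after a log2 transformation with a pseudocount of 1. The fit held 4 group means, and p-values were adjusted by the Benjamini-Hochberg method. A gene was called at an adjusted p under 0.05 and an LFC over 0.25 in size, without the LFC limit for the difference between regions. A fold change of a low gene is understated on this scale. The scripts were tested on simulated data. Alternatives were a pseudocount of 0.5 or 5, all genes unfiltered, a minimum mean of 100, no LFC limit, edgeR 4.0.16 and DESeq2 1.42.0 on the recovered reads, removal of the length and GC trend, each region fitted on its own, and each library left out. Symbols matched GENCODE vM21 for 95.0% of entries, and 24 symbols that had been turned into dates were left as they stood.

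The members, the 8 phosphatase lists and the marker lists were chosen with earlier results of these data known. The genes named are the members, Atxn1, the list genes called in either region (at most 6 of a list in 1 region), and the 3 genes most like each member. The NFAT genes, Rcan3, Ppp3cc, the PP1 catalytic subunits, Prkaca, Prkacb, Cdk5 and the single marker genes were named in addition, after their values were seen. A further gene of the striatal marker list is not reported here and entered no sum.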

Additional observations from a re-analysis of the deposited data

Results flagged for a closer look

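For Ppp3ca, the catalytic A alpha subunit gene of calcineurin, the genotype effect differed between the regions. The LFC was −0.70 in the cortex and 0.04 in the cerebellum, a difference of −0.74 (adjusted p = 0.00279 from limma). This difference kept its direction and passed in every fit that left out 1 library. For Ppp1r9b, the spinophilin gene, the LFC was −0.58 in the cortex and −0.06 in the cerebellum, a difference of −0.53 (adjusted p = 0.0417 from limma). It ranged from −0.61 to −0.38 when 1 library was left out, and the smallest size came without SCA1 KI cortex library A. The difference passed in 3 of these 12 fits and was lost in 9, with an adjusted p of up to 0.113. Groups of 3 libraries were not tested for outlying samples.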

How the results depend on the processing

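No paired analysis was possible because the columns carry no replicate number of the labels. With 3 libraries a group, small differences such as those of Rcan1, Ppp3cb and the cerebellar members could not be resolved, although depth was high. Of the values recomputed under the alternatives, 589 kept their direction and their side of the threshold, 21 lost a call, 4 gained one and 10 turned in direction. The 6 cortex calls held under every change of setting except that Ppp1r1a was lost with the cortex fitted on its own, and 5 or 6 members passed when 1 library was left out. The number of cerebellar members that passed ranged from 0 to 1 when 1 library was left out, since Rcan2 was lost without SCA1 KI library 1 or 3. With the cerebellum fitted on its own 1 member passed, but it was Ppp1r1b and not Rcan2. The number that passed for the difference between the regions ranged from 1 to 2 when 1 library was left out, and Ppp3ca passed in each of these fits. Removing the length and GC trend turned small differences that had not passed, namely Rcan1 in the cerebellum (LFC 0.069), Ppp1r9b in the cerebellum (0.079) and Rcan1 between the regions (−0.034). When 1 library was left out, the LFC of Rcan1 ranged from −0.042 to 0.068 in the cortex, from −0.10 to 0.014 in the cerebellum and from −0.0086 to 0.11 between the regions, that of Ppp3ca in the cerebellum from −0.050 to 0.086, and that of Rcan2 between the regions from −0.21 to 0.083. The cause was not tested. Over all genes, removing that trend moved the split of cortex calls from 741 higher and 1661 lower to 1029 and 1313, and that of cerebellum calls from 141 and 683 to 541 and 582. On the recovered reads, edgeR called 842 genes higher and 1630 lower in the cortex and 145 and 721 in the cerebellum. Cerebellum calls fell to 43 higher and 356 lower without SCA1 KI library 1, to 50 and 404 without library 3 and to 55 and 457 without library 5.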
